A study of Mus musculus with 12 samples.

Results

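The genes described here are 10 inhibitors of mitogen-activated protein (MAP) kinase signalling in the mouse kidney. They comprise 6 dual-specificity phosphatases (Dusp1, Dusp4, Dusp5, Dusp6, Dusp10 and Dusp16), 2 Sprouty genes (Spry2 and Spry4) and 2 Sprouty-related genes (Spred1 and Spred2). All 10 were taken by symbol from the 25553 genes of 1 table of FPKM, a count of sequenced fragments scaled by gene length and sequencing depth. The RNA came from whole kidneys of wild-type mice in 4 groups of 3, for which the labels name no strain, age or sex. Normoxic sham mice (NS) had neither preconditioning nor renal ischemia, and normoxic RIRI mice (NR) had both renal pedicles clamped for 45 min and 12 h of reperfusion, without preconditioning. Preconditioned sham mice (HS) breathed 8% oxygen in a chamber once a day, with sessions lengthening from 2 h (day 1) through 4 h (day 2) to 8 h (day 3), and were not clamped. Preconditioned RIRI mice (HR) had the same hypoxic sessions and then the same ischemia and reperfusion (RIRI, renal ischemia-reperfusion injury). Injured kidneys were taken at a single time of reperfusion, so a course over time was not measured, and no time is recorded here for the shams. In whole tissue, fewer cells of a type and less RNA per cell cannot be told apart.

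The ERK kinases carry signals of growth factor receptors through RAS, RAF and MEK to the nucleus, and the JNK and p38 kinases carry stress and cytokine signals. Dual-specificity phosphatases of the MAP kinase phosphatase (MKP) family switch these kinases off by removing phosphate from both the threonine and the tyrosine of their activation loop. Sprouty and Spred proteins act further upstream and hold back the activation of RAS and RAF. Many of these genes are themselves transcribed in response to ERK activity, which makes them feedback inhibitors, and in the injured kidney ERK, JNK and p38 are known to be activated in tubules after ischemia and reperfusion.

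Recovered depth ran from 33035307 to 35632033 reads per library, and each of the 10 genes had at least 21 reads in every library. Of the 10 genes, 9 reached an FPKM of 1 in at least 3 of the 12 libraries and were tested among 12357 such genes. Dusp10 reached it in 1 library only. Whole-kidney markers were present in every group: summed FPKM of 6 proximal tubule markers was 3340 to 3541 in normoxic sham and 1007 to 1311 in normoxic RIRI, and that of 3 podocyte markers 58.8 to 75.1 and 61.4 to 64.0. The injury markers Havcr1, Lcn2 and Krt20 summed to 2.47 to 3.99 in normoxic sham, 4.36 to 6.47 in preconditioned sham, 2335 to 4109 in normoxic RIRI and 728 to 1608 in preconditioned RIRI. Summed FPKM of 6 neutrophil markers was 2.18 to 14.8, 1.66 to 4.19, 130 to 290 and 23.2 to 110 in the same order, and that of 3 macrophage markers 20.1 to 21.9, 20.4 to 21.8, 31.6 to 32.5 and 27.1 to 32.3. Of these 3, Cd68 rose from a mean of 2.72 in normoxic sham to 25.1 in normoxic RIRI, Csf1r fell from 16.8 to 5.92, and Adgre1, at 1.51 and 1.01, was not called. The part of these cells in the results below was not tested.

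Injury without preconditioning raised 7 of the 9 tested genes and lowered 0, where 71.7% of all tested genes were called, 41.6% higher and 30.1% lower. Dusp5 rose by far the most of the 9, followed by Spry2 and Spry4, while Dusp4, Dusp16, Spred1 and Dusp6 rose by smaller amounts. Dusp1 and Spred2 did not pass the test. Calls were made with limma on log2(FPKM + 1) at an adjusted p under 0.05 (Benjamini-Hochberg over all tested genes). The median log2 fold change of the 9 genes was 0.97, against 0.10 for all tested genes. In the 7 called genes every injured kidney was above every sham kidney. Groups stood apart in this way in 74.3% of all tested genes, upward in 42.9% and downward in 31.4%.

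**Figure D1:**
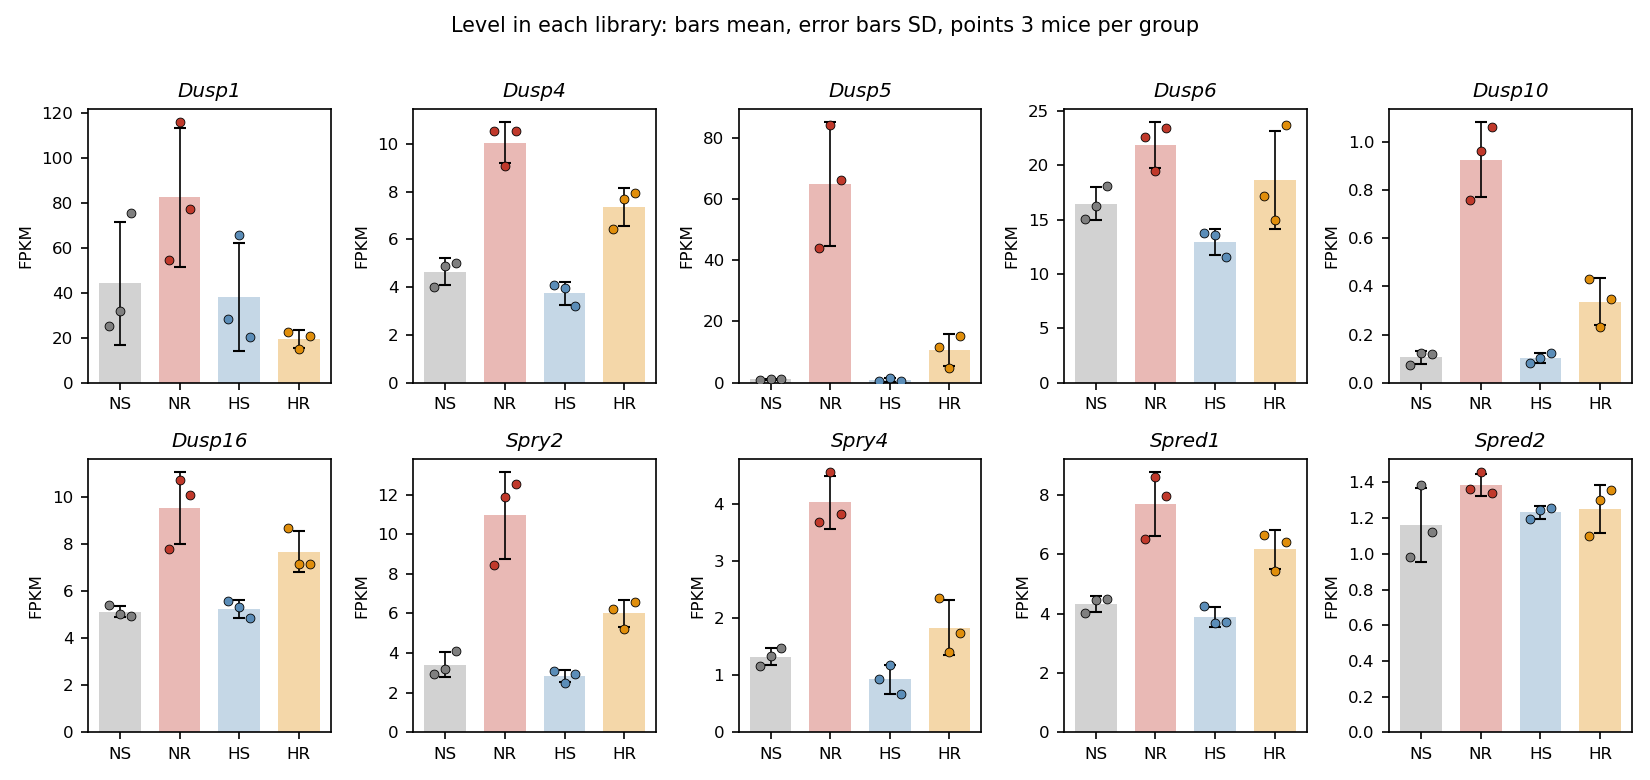
FPKM of the 10 genes in normoxic sham (NS), normoxic RIRI (NR), preconditioned sham (HS) and preconditioned RIRI (HR). Bars are means, error bars SD and points the 3 mice of each group, each panel with its own axis from 0; Dusp5 reached 44.0 to 84.2 in normoxic RIRI and 4.78 to 15.1 in preconditioned RIRI, and Dusp1 was widely spread in both sham groups.

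Of the phosphatases that act in the nucleus, Dusp5 showed the largest response. Its product is specific for ERK and holds it in the nucleus. Dusp5 had FPKM of 0.833, 1.19 and 1.28 in normoxic sham and of 44.0, 84.2 and 66.2 in normoxic RIRI, a ratio of means of 58.8. In preconditioned sham it had 0.565, 1.45 and 0.483, and in preconditioned RIRI 11.7, 4.78 and 15.1. Every injured kidney was therefore above every sham kidney, and every preconditioned injured kidney was below every normoxic injured one. On the log2(FPKM + 1) scale, which understates changes of genes near an FPKM of 1, injury raised Dusp5 by 4.93 ± 0.34 (SE, n = 3 per group) in normoxic mice, with an adjusted p of 1.57e-07 by limma. That was the 14th highest change of 12357 genes. In preconditioned mice the rise was 2.57 ± 0.34 (adjusted p = 8.85e-05, limma). Between the RIRI groups Dusp5 fell by 2.59 ± 0.34 (adjusted p = 0.000206, limma), the 6th lowest difference of all tested genes.

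The 250 bases before the RefSeq start of Dusp5 (chr19:53528895-53529144, plus strand, GRCm38.p6) are shown because this gene responded most. Capitals mark a pair of adjoining CArG boxes, the element bound by serum response factor, at 82 to 73 and 72 to 63 bases before the start.
Dusp5: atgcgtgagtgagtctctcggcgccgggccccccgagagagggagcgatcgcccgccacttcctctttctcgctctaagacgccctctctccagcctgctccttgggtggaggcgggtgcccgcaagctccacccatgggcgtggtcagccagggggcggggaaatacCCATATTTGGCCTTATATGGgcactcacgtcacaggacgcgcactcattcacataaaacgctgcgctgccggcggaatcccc
Of 32841 promoters of 300 bases in the same RefSeq table, searched on both strands, 1.63% held at least 1 CArG box and 6 promoters (0.0183%) held at least 2. The match is a description of the sequence, and no binding was measured. On GRCm38 Dusp5 lies on chromosome 19 from 53529145 to 53541809, and GENCODE places a gene of the opposite strand across it. Whether the fragments were counted by strand is not given in the sources used here, so reads of the pair cannot be told apart, and the same holds for Dusp1, which overlaps Ergic1, and for Dusp10, Dusp16 and Spry4.

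Dusp4, a nuclear phosphatase of ERK and JNK, was raised by injury in both arms. It had FPKM of 4.02, 4.90 and 5.03 in normoxic sham, 10.6, 9.09 and 10.5 in normoxic RIRI, 4.09, 3.97 and 3.20 in preconditioned sham, and 6.45, 7.68 and 7.95 in preconditioned RIRI. Every injured kidney was above its shams, and the RIRI groups stood apart from each other. The log2 fold change with injury was 0.97 ± 0.11 (adjusted p = 7.33e-06, limma) in normoxic and 0.82 ± 0.11 (adjusted p = 8.59e-05, limma) in preconditioned mice. Dusp4 was lower in preconditioned than in normoxic RIRI and fell by 0.41 ± 0.11 (adjusted p = 0.0114, limma).

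Dusp1 is an immediate-early gene whose product dephosphorylates p38, JNK and ERK. It had the highest mean FPKM of the 10 genes in every group and varied most among normoxic sham mice. It had FPKM of 25.3, 31.7 and 75.6 in normoxic sham, 54.5, 116 and 77.2 in normoxic RIRI, 28.3, 65.6 and 20.5 in preconditioned sham, and 22.6, 14.8 and 20.8 in preconditioned RIRI. The third normoxic sham library lay in the range of normoxic RIRI, so these groups overlapped. The second preconditioned sham library lay far above preconditioned RIRI, while the third, at 20.5, lay within its range, so that these groups overlapped as well. The SD of the sham groups was 61.8% and 63.2% of the mean. Injury changed Dusp1 by 0.98 ± 0.45 in normoxic mice (adjusted p = 0.0692, limma) and by -0.79 ± 0.45 in preconditioned mice (adjusted p = 0.161, limma), and neither was called. Between the RIRI groups Dusp1 fell by 1.99 ± 0.45 (adjusted p = 0.00477, limma), the 23rd lowest difference, with all 3 preconditioned values below all 3 normoxic ones.

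The high sham values of Dusp1 came with other immediate-early genes. Of 10 such genes chosen after the Dusp1 values were seen (Fos, Fosb, Egr1, Jun, Junb, Ier2, Btg2, Zfp36, Atf3 and Nr4a1), 10 were highest in normoxic sham replicate 3 among its group and 10 were highest in preconditioned sham replicate 2 among its group. Egr1 had FPKM of 5.70, 7.35 and 46.3 in normoxic sham and 12.7, 26.6 and 3.12 in preconditioned sham. Fos had 2.11, 0.985 and 14.5, and 3.10, 7.47 and 0.473. Dusp5 was also highest in these libraries, at 1.28 and 1.45, with an SD of 21.5% of the mean in normoxic sham and 64.6% in preconditioned sham. Without both libraries, an analysis chosen after the values were seen, the injury change of Dusp1 in normoxic mice was 1.44 ± 0.29 and was called (adjusted p = 0.00157, limma). Then 8 of the 9 genes were called higher, where 4758 of all 12357 tested genes were called higher and 3490 lower. Leaving out only normoxic sham replicate 3 (adjusted p = 0.0110), normoxic RIRI replicate 1 (0.0429) or preconditioned sham replicate 2 (0.0356) also brought the call, each by limma.

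**Figure D2:**
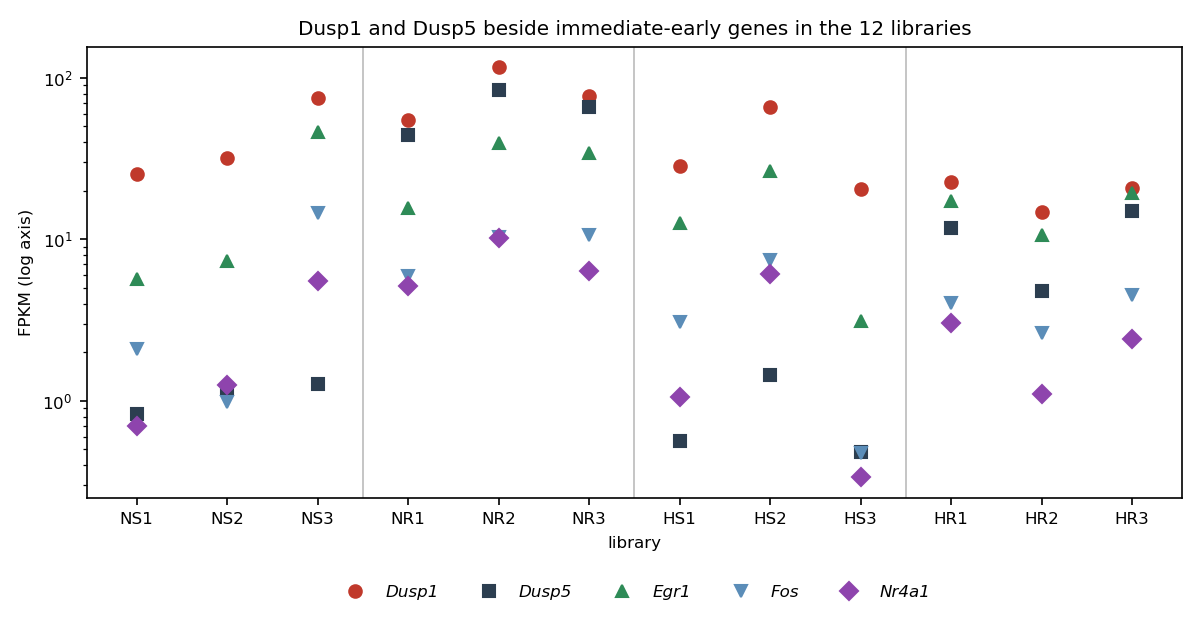
FPKM on a log axis of Dusp1 and Dusp5 beside the immediate-early genes Egr1, Fos and Nr4a1 in each of the 12 libraries, grouped as normoxic sham (NS), normoxic RIRI (NR), preconditioned sham (HS) and preconditioned RIRI (HR). Dusp1, Egr1, Fos and Nr4a1 are all highest in NS3 within normoxic sham and in HS2 within preconditioned sham, and so is Dusp5, at 1.28 and 1.45.

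The promoter of Dusp1 (chr17:26508473-26508722, minus strand, GRCm38.p6) is shown as that of the member with the highest mean FPKM and printed along the gene's own strand. Capitals mark TGACGTCA, the cyclic AMP response element, at 143 to 136 bases before the start, and its core TGACG at 191 to 187 bases before the start. The promoter of Dusp6 (chr10:99262981-99263230, plus strand, GRCm38.p6) is set beside it because Dusp6 had the smallest injury change of the 5 tested phosphatases in normoxic mice.
Dusp1: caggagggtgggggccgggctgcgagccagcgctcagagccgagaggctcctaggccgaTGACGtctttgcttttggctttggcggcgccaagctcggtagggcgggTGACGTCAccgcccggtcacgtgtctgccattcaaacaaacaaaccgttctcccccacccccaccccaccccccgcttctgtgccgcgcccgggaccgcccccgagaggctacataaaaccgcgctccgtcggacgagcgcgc
Dusp6: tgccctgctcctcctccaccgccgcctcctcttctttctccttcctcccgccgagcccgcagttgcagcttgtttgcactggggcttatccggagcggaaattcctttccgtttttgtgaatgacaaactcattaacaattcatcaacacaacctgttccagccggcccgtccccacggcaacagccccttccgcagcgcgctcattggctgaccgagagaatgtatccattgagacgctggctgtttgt
TGACGTCA occurred in 1.79% and TGACG, which it contains, in 20.8% of the 32841 promoters, on either strand. Dusp6 had no match to TGACGTCA, TGACG, the CArG box, the AP-1 site TGANTCA (in 7.81% of promoters), the ETS site CCGGAA (14.9%) or TATAAA (13.6%) in its 300 bases, which says only that these letters are not in that window. The RefSeq table held promoters for 8 of the 10 genes. Among these, Dusp10 and Spred1 had none of these motifs either, and TGACG was also found in Dusp5, Dusp16 and Spred2. A link between motifs and injury changes was not tested.

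Dusp6, the cytoplasmic phosphatase specific for ERK, moved little. It had FPKM of 15.1, 16.2 and 18.1 in normoxic sham, 22.6, 19.4 and 23.5 in normoxic RIRI, 13.8, 13.6 and 11.6 in preconditioned sham, and 17.2, 15.0 and 23.7 in preconditioned RIRI. Both injured groups lay above their own shams without overlap, and the RIRI groups overlapped. Injury raised it by 0.39 ± 0.14 in normoxic mice (adjusted p = 0.0287, limma) and by 0.47 ± 0.14 in preconditioned mice (adjusted p = 0.0158, limma). The difference between the RIRI groups was -0.24 ± 0.14 and was not called (adjusted p = 0.201, limma), except without preconditioned RIRI replicate 3 (-0.42, adjusted p = 0.0162, limma). The normoxic call was lost after median-ratio rescaling (adjusted p = 0.0996) and quantile normalization (0.185), with no filter on low values (0.0623), and without normoxic sham replicate 1 (0.0961) or 2 (0.0671) or normoxic RIRI replicate 1 (0.0711) or 3 (0.0903), all by limma. The preconditioned call was lost after quantile normalization (0.0596) and without preconditioned sham replicate 3 (0.0631) or preconditioned RIRI replicate 3 (0.0565), again by limma.

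Of the phosphatases with a preference for JNK and p38, Dusp16 rose modestly with injury in normoxic mice, by a ratio of means of 1.86. Dusp10 rose by a ratio of 8.79, from a very low level. Dusp16 had FPKM of 5.40, 5.02 and 4.96 in normoxic sham, 7.80, 10.7 and 10.1 in normoxic RIRI, 5.59, 5.32 and 4.84 in preconditioned sham, and 8.69, 7.17 and 7.17 in preconditioned RIRI. Injured and sham libraries did not overlap in either arm, and the RIRI groups overlapped. With injury Dusp16 rose by 0.77 ± 0.11 (adjusted p = 5.24e-05, limma) and by 0.47 ± 0.11 (adjusted p = 0.00358, limma), and the difference between the RIRI groups, -0.27 ± 0.11, missed the threshold (adjusted p = 0.0643, limma). It passed after median-ratio rescaling (-0.34, 0.0423), after quantile normalization (-0.31, 0.0498), and without normoxic RIRI replicate 1 (-0.40, 0.00658) or preconditioned RIRI replicate 1 (-0.35, 0.0319), all adjusted p by limma.

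Dusp10 had FPKM of 0.0742, 0.122 and 0.120 in normoxic sham and of 0.758, 0.962 and 1.06 in normoxic RIRI. It had 0.0804, 0.101 and 0.122 in preconditioned sham and 0.430, 0.233 and 0.349 in preconditioned RIRI. These rest on 21 to 304 reads per library, and the order of the groups was that of Dusp5 with no overlap between sham and injured or between the RIRI groups. In the analysis without a filter, over 25553 genes, its log2 fold change was 0.80 ± 0.064 with injury in normoxic mice (adjusted p = 5.55e-06, limma) and -0.53 ± 0.064 between the RIRI groups (adjusted p = 0.000686, limma). It was 0.28 ± 0.064 with injury in preconditioned mice (adjusted p = 0.00932, limma), and the difference of injury effects was -0.52 ± 0.090 and called (adjusted p = 0.00922, limma). The gene on its opposite strand, 1700056E22Rik, had an FPKM of at most 0.773.

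The Sprouty genes, whose products are recruited by growth factor receptors and restrain RAS activation, are represented by Spry2 and Spry4, which rose with injury in both arms. Spry2 had FPKM of 2.92, 3.22 and 4.12 in normoxic sham, 8.45, 11.9 and 12.5 in normoxic RIRI, 3.09, 2.50 and 2.97 in preconditioned sham, and 6.22, 5.22 and 6.57 in preconditioned RIRI. The 4 groups fell into 3 levels without overlap, both shams lowest, preconditioned RIRI between and normoxic RIRI highest. Injury raised Spry2 by 1.43 ± 0.14 (adjusted p = 3.08e-06, limma) in normoxic and by 0.86 ± 0.14 (adjusted p = 0.000412, limma) in preconditioned mice, and between the RIRI groups it fell by 0.76 ± 0.14 (adjusted p = 0.00172, limma).

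Spry4 had FPKM of 1.17, 1.33 and 1.48 in normoxic sham, 3.69, 4.55 and 3.83 in normoxic RIRI, 0.932, 1.18 and 0.670 in preconditioned sham, and 2.36, 1.40 and 1.75 in preconditioned RIRI. The injured groups again lay above their own shams and apart from each other, although preconditioned RIRI replicate 2 lay within the range of normoxic sham. Injury raised Spry4 by 1.11 ± 0.13 (adjusted p = 1.38e-05, limma) and by 0.55 ± 0.13 (adjusted p = 0.00463, limma), and it fell by 0.83 ± 0.13 between the RIRI groups (adjusted p = 0.000652, limma).

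Spred1 and Spred2 encode membrane proteins that bring neurofibromin, a RAS inactivator, to the membrane. Spred1 had FPKM of 4.02, 4.48 and 4.49 in normoxic sham, 6.50, 8.61 and 7.96 in normoxic RIRI, 4.27, 3.67 and 3.71 in preconditioned sham, and 6.66, 5.43 and 6.40 in preconditioned RIRI. It rose with injury by 0.70 ± 0.10 (adjusted p = 7.05e-05, limma) and by 0.55 ± 0.10 (adjusted p = 0.000895, limma) without overlap in either arm. Between the RIRI groups its difference was -0.27 ± 0.10 with an adjusted p of 0.0502 by limma, and it passed under 5 of the 22 alternatives. These were both rescalings, by median ratio (0.0304) and by quantiles (0.0365), limma voom on recovered reads (0.0391), and leaving out normoxic RIRI replicate 1 (0.00980) or preconditioned RIRI replicate 1 (0.0461).

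Spred2 showed no call in any comparison. It had FPKM of 0.980, 1.39 and 1.12 in normoxic sham, 1.36, 1.46 and 1.34 in normoxic RIRI, 1.19, 1.25 and 1.26 in preconditioned sham, and 1.10, 1.30 and 1.36 in preconditioned RIRI, so that the groups overlapped in both injury comparisons. Its injury change was 0.15 ± 0.087 in normoxic mice (adjusted p = 0.150, limma) and 0.011 ± 0.087 in preconditioned mice (adjusted p = 0.923, limma). Without normoxic sham replicate 2 the first was 0.22 and called (adjusted p = 0.0494, limma).

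In preconditioned mice injury raised 7 of the 9 tested genes and lowered 0, beside 52.4% of all tested genes called, 33% higher and 19.4% lower. They were Dusp4, Dusp5, Dusp6, Dusp16, Spry2, Spry4 and Spred1, which are also the 7 raised in normoxic mice. The arms share no libraries, but the tests of both use the same spread, estimated over all 12 libraries. All 7 stood above their shams without overlap, as did 40.2% of all tested genes. The median log2 fold change was 0.55, against 0.10 for all tested genes. Dusp1 and Spred2 were not called.

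Between the injured groups, 5 of the 9 genes were lower with preconditioning and 0 higher, where 42.1% of all tested genes were called, 17.4% lower and 24.7% higher. The 5 were Dusp1, Dusp4, Dusp5, Spry2 and Spry4, and their values did not overlap between the groups, a gap that 47.7% of all tested genes showed, 19.9% downward and 27.8% upward. Mean FPKM in preconditioned RIRI was 16.2% of that in normoxic RIRI for Dusp5, 23.5% for Dusp1, 45.6% for Spry4, 54.8% for Spry2 and 73.1% for Dusp4. The differences of the other 4, Dusp6, Dusp16, Spred1 and Spred2, were also negative and not called, with means from 80.2% to 90.3%. This comparison uses the same normoxic RIRI libraries as that with normoxic sham, so a high value there would appear in both. The summed neutrophil markers given above were also lower in preconditioned RIRI without overlap, and all 6 were called lower. The summed injury markers were lower too, with Lcn2 and Krt20 called lower and Havcr1 not called, at a mean FPKM of 264 in normoxic and 365 in preconditioned RIRI. Summed FPKM of 4 endothelial markers was 123 to 149 in normoxic and 102 to 110 in preconditioned RIRI, with Cdh5 and Kdr called lower, and that of the proximal tubule markers 1007 to 1311 and 1440 to 1712. The part of these markers in the differences was not tested.

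Whether the injury effect itself differed with preconditioning was tested as the injury effect in preconditioned minus that in normoxic mice. This difference was called in 23.9% of all tested genes, positive in 11.3% and negative in 12.6%. A positive value can also be a smaller fall, so its sign alone does not give the larger effect. Of the 9 genes, 1 was called, Dusp5, with -2.36 ± 0.49 (adjusted p = 0.00618, limma), the 12th lowest value of 12357. Spry4 was at -0.56 ± 0.19 (adjusted p = 0.0518, limma), Spry2 at -0.57 ± 0.20 (0.0636, limma) and Dusp1 at -1.77 ± 0.64 (0.0640, limma), just outside the threshold. For Dusp4, Dusp6, Dusp16, Spred1 and Spred2 the values lay between -0.30 and 0.085, with adjusted p from 0.177 to 0.792 by limma. The Dusp5 call was lost with limma voom on recovered reads (-2.18 ± 1.05, adjusted p = 0.146), and the number of called genes was 5 without normoxic RIRI replicate 1 (Dusp1, Dusp5, Dusp16, Spry2 and Spry4). It was 3 without normoxic sham replicate 3 (Dusp1, Dusp5 and Spry2) or preconditioned sham replicate 3 (Dusp1, Dusp5 and Spry4), and 2 without preconditioned RIRI replicate 1 (Dusp5 and Spry4).

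**Figure D3:**
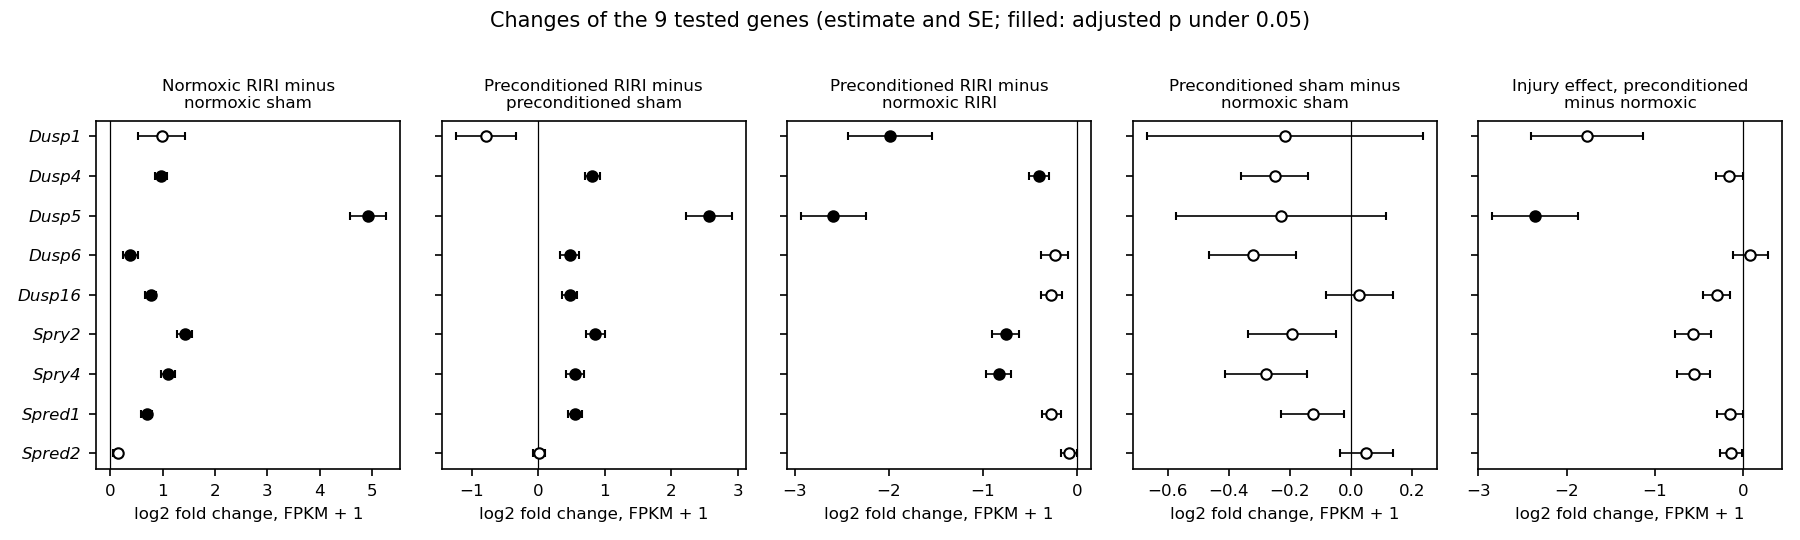
Log2 fold changes on the FPKM + 1 scale of the 9 tested genes in the 5 comparisons, as estimate and SE from limma over 12 libraries, with filled points for an adjusted p under 0.05 and a separate axis range for each panel. Injury raised 7 genes in either arm, and 5 were lower in preconditioned than in normoxic RIRI. Between the sham groups 0 were called, and only Dusp5 of the 9 had a called difference of injury effects.

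For preconditioning without ischemia 0 of the 9 genes were called by limma, at a background of 0.421% of all tested genes. With 3 mice per group this does not show that they were unchanged. With an unadjusted p under 0.05 there were 2, Dusp4 (-0.25 ± 0.11) and Dusp6 (-0.32 ± 0.14), and limma voom called 0. The share of all tested genes at that unadjusted threshold was not counted, so these 2 have no background beside them. The signs were negative for 7 of 9, with a median of -0.22 against 0.064 for all tested genes. Dusp6 was the only gene of the 9 whose sham groups did not overlap, at 13.0 ± 1.20 in preconditioned and 16.5 ± 1.50 in normoxic sham (SD, n = 3), where 29.4% of all tested genes showed such a gap and 6.36% showed it downward.

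FPKM is scaled by gene length, but the length used for each gene is not given in the sources used here. Spred2 had 1255 to 1851 reads per library at an FPKM of 0.980 to 1.46. Dusp6 had 1234 to 2631 reads at an FPKM of 11.6 to 23.7. The order below therefore depends on these lengths and describes FPKM only. In normoxic sham the order by mean FPKM was Dusp1 at 44.2 ± 27.3 (SD, n = 3), Dusp6 at 16.5 ± 1.50, Dusp16 at 5.13 ± 0.24, Dusp4 at 4.65 ± 0.55, Spred1 at 4.33 ± 0.27, Spry2 at 3.42 ± 0.63, Spry4 at 1.33 ± 0.15, Spred2 at 1.16 ± 0.21, Dusp5 at 1.10 ± 0.24 and Dusp10 at 0.106 ± 0.027. Neighbours from Dusp16 to Spry2 overlapped, as did those from Spry4 to Dusp5. In normoxic RIRI, Dusp5 moved from the 9th to the 2nd place at 64.8 ± 20.1, overlapping Dusp1 at 82.5 ± 31.1 and standing clear of Dusp6 at 21.8 ± 2.12. In preconditioned RIRI it held the 3rd place at 10.5 ± 5.24, overlapping its neighbours Dusp6 at 18.7 ± 4.54 and Dusp16 at 7.68 ± 0.88, and Dusp1 at 19.4 ± 4.10 overlapped Dusp6.

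Genes of similar pattern were sought by the root mean square difference of log2(FPKM + 1) over the 12 libraries, each gene centred on its own mean. Nearest to Dusp5 were Akap12, a kinase anchoring protein, at 0.28, Cdkn1a, the cell cycle inhibitor p21, at 0.41, and Sox9, a transcription factor of tubular repair, at 0.45. Akap12 had mean FPKM of 3.45 in normoxic sham, 142 in normoxic RIRI, 3.64 in preconditioned sham and 25.9 in preconditioned RIRI. Nearest to Dusp1 were the kinase gene Pim3 (0.43), the nuclear receptor gene Nr4a1 (0.47) and Zfp36 (0.47), whose product promotes decay of cytokine mRNAs, so that the last 2 are among the immediate-early genes above. Nearest to Spry2 were Rassf1 (0.095), Btg3 (0.12) and Tnfrsf1b (0.12), a TNF receptor. Nearest to Spry4 were the leukocyte receptor genes Pirb and Cxcr4, both at 0.12, and Cmas (0.12). Nearest to Dusp16 were Stx12 (0.080), Rps6ka3 (0.086), a kinase downstream of ERK, and Sh3pxd2b (0.086), and nearest to Spred1 were Surf4 (0.067), Bend3 (0.068) and Exoc5 (0.076). Dusp4 was nearest to Aars, Capns1 and Traf3 (0.10 to 0.11), Dusp6 to Cdk2ap2, Dnajb2 and Cenpv (0.11 to 0.14), and Spred2 to Vps54, Ptgr3 and Mettl9 (0.049 to 0.053).

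The remaining family members, from lists written with earlier results of these data known, moved in both directions. Of the other MKP genes, 3 of 4 rose with injury in normoxic mice and 1 fell, beside 41.6% and 30.1% of all tested genes. Dusp8, a phosphatase of JNK and p38, rose by 2.09 ± 0.19 from a mean FPKM of 0.622 to 5.93, the ERK phosphatase gene Dusp7 rose by 1.45 ± 0.14 from 6.60 to 19.7, and Dusp2 rose by 0.72 ± 0.14. Dusp9 fell by 1.12 ± 0.20, from 3.20 to 0.926. In preconditioned RIRI the first 3 were lower than in normoxic RIRI and Dusp9 was higher, with Dusp7 at -0.93 and Dusp9 at 0.63. Of all tested genes 17.4% were lower and 24.7% higher in that comparison. Spred3 rose by 1.89 ± 0.099, from 0.170 to 3.36, and was lower in preconditioned RIRI by 0.97 on the log2 scale at a mean FPKM of 1.23. Spry1 had mean FPKM of 12.7 and 14.2 in normoxic sham and RIRI and was not called, and Spry3 was not analysed here.

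The counts for the kinase cascades these proteins restrain stand beside 41.6% of all tested genes higher and 30.1% lower with injury in normoxic mice, and 24.7% higher and 17.4% lower between the RIRI groups. Of 17 tested genes of the RAS-ERK cascade 13 rose and 1 fell with injury in normoxic mice, with a median of 0.37. Among those with the smallest adjusted p were the RAS gene Nras (1.89), the MEK1 gene Map2k1 (0.85) and the adaptor gene Shc1 (1.18). Mapk3, which encodes ERK1, rose by 0.37. Between the RIRI groups 7 of the 17 were lower and 1 higher, Araf. Of 14 genes of the JNK and p38 cascades 11 rose and 2 fell with injury (median 0.67), with Map2k3 at 1.12 and Mapk13 at 1.18, and the p38 alpha gene Mapk14 and Map2k6 fell by 0.57 and 0.80. In preconditioned RIRI 8 of these 14 were lower than in normoxic RIRI and 2 higher, Map3k1 and Mapk14.

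The counts that follow also stand beside 41.6% of all tested genes higher and 30.1% lower with injury in normoxic mice. Between the RIRI groups 24.7% of all tested genes were higher and 17.4% lower with preconditioning. Of 12 genes known to respond to ERK 7 rose and 1 fell with injury in normoxic mice, with a median of 1.48 on the log2 scale. Those with the smallest adjusted p were Plaur (4.98), the urokinase receptor gene, the AP-1 factor gene Fosl1 (6.43), Myc (4.15) and Epha2 (2.93), an ephrin receptor. Etv1 fell by 0.85, and Etv5, Egr1, Fos and Ccnd1 were not called. In preconditioned RIRI 6 of the 12 were lower and 1 was higher than in normoxic RIRI. Of 10 other inhibitors of the pathway 7 rose and 1 fell with injury, with the ubiquitin ligase gene Cbl at 0.74 and Cic, a repressor relieved by ERK, at 0.79, and between the RIRI groups 3 were lower, Errfi1, Rasa2 and Cbl. Of 13 receptor tyrosine kinases 3 rose and 5 fell with injury, with Fgfr3 at -1.08 and the PDGF receptor gene Pdgfrb at 0.87, and 5 were higher and 1 lower in preconditioned RIRI. No test of these lists against other genes was made.

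**Figure D4:**
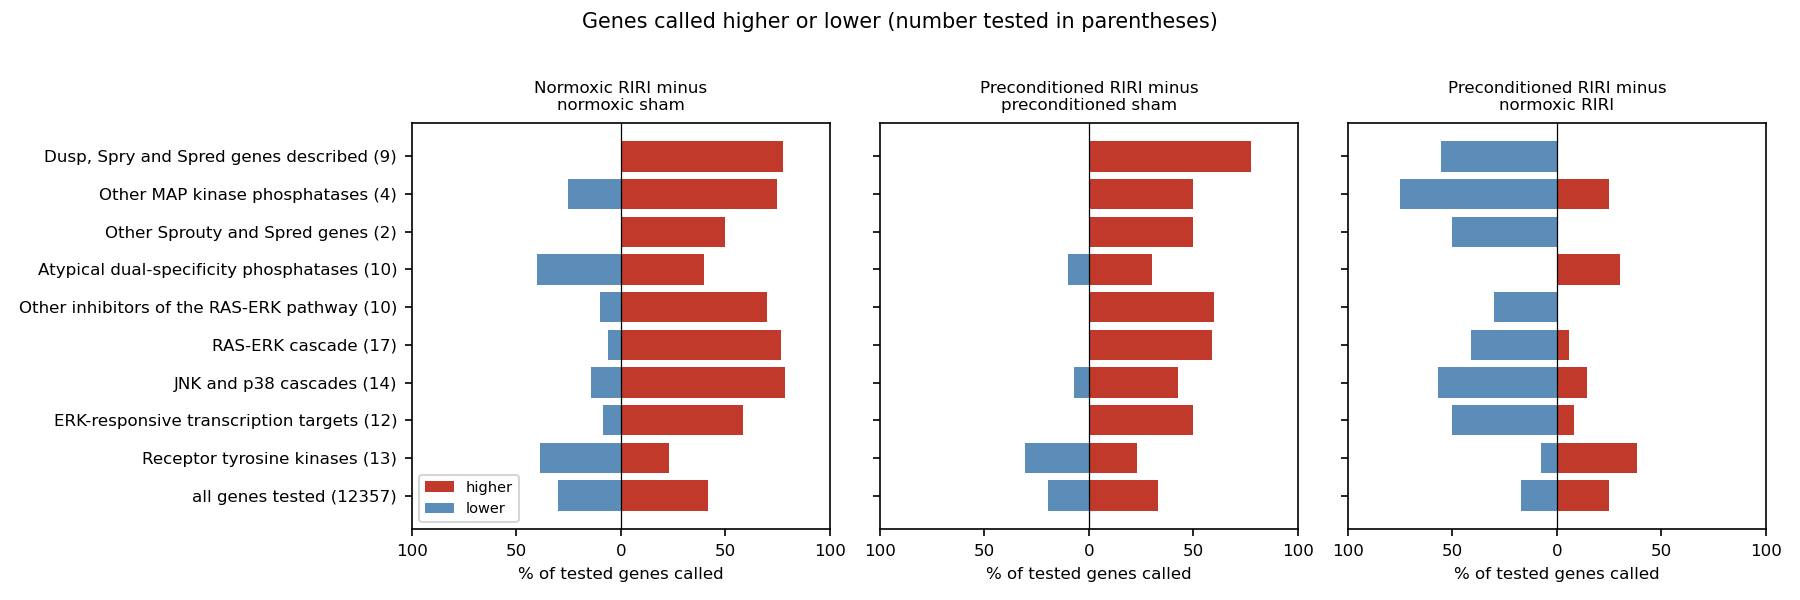
Percent of the tested genes of each list called higher (right, red) or lower (left, blue) by limma in 3 comparisons, with the number tested in parentheses and all 12357 tested genes in the lowest row. Of the 9 Dusp, Spry and Spred genes described, 7 were higher with injury in each arm and 5 lower in preconditioned than in normoxic RIRI, beside 41.6%, 33% and 17.4% of all tested genes.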

How the data were processed

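RNA of 12 mouse kidneys was sequenced, 3 per group. The authors deposited 1 table of FPKM, and per the submitters' processing notes mm10, HTSeq and DESeq2 were used, without versions or roles. For the aligner and annotation the sources used here name nothing. From FPKM, log2(FPKM + 1) values were modelled in R 4.3.3 by limma 3.58.1 (mean-variance trend, 4 group means, all 12 libraries, Benjamini-Hochberg adjustment) over the 12357 genes that reached FPKM 1 in 3 or more libraries, after the script had been tested on simulated data. Whole reads were recovered from the steps of the FPKM values for 25548 genes at a tolerance of 1e-06, as a measure of depth and for 1 alternative. No 2 libraries shared an equal value above 0. The filter was dropped or set at FPKM 5, and the pseudocount set to 0.1. Other alternatives were 2 rescalings (median ratio, quantiles), only the groups compared, no trend, the replicate number as a block, limma voom, and leaving out each library. That without 2 sham libraries was chosen after seeing the data.

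The 10 genes and the lists were chosen with earlier results of these data known. All 10 are named. From each list up to 4 called genes with the smallest adjusted p in a comparison are named, and others where a count needed them; some results are not reported here. For each tested gene the 3 genes of closest pattern are named, passing over predicted genes and clones. Positions and promoters are those of RefSeq on GRCm38.p6, the assembly of mm10. The labels give 1 batch and do not say that a replicate number pairs mice. FPKM precision is limited by 3 mice per group and by reads for Dusp10.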

Additional observations from a re-analysis of the deposited data

Results flagged for a closer look

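The injury effect on Dusp5 differed between the arms, by -2.36 ± 0.49 on the log2(FPKM + 1) scale (adjusted p = 0.00618, limma interaction term). All 3 injured kidneys of each arm were above their shams, at 4.78 to 15.1 against 44.0 to 84.2 FPKM in preconditioned and normoxic RIRI. It was called under 20 of 21 alternatives, with values from -2.66 to -1.93, and not with limma voom on recovered reads (-2.18 ± 1.05, adjusted p = 0.146).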

How the results depend on the processing

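Of 971 values of the 9 tested genes under the alternatives, 919 kept their direction and their side of the threshold, 11 lost their call, 27 gained one and 14 changed sign. Counts of called genes follow for these 9. The alternative with no filter adds Dusp10, and the filter at FPKM 5 leaves out Spry4 and Spred2. The counts ranged from 6 to 8 for injury in normoxic mice and from 6 to 8 in preconditioned mice (8 only with Dusp10). They ranged from 4 to 7 between the RIRI groups (4 only where Spry4 was left out) and from 0 to 0 between the shams. For the difference of injury effects it was 1, with 2 under no filter (Dusp5 and Dusp10), 2 without the mean-variance trend, 2 with the replicate number as a block (Spry2 besides Dusp5, adjusted p = 0.0495 by limma), 0 with limma voom, 2 without normoxic sham replicate 3 and preconditioned sham replicate 2, and 1 to 5 when 1 library was left out. The cause was not tested. All 14 sign changes were of uncalled values. Between the shams, Dusp1 ranged from -0.69 to 0.24, Dusp16 from -0.012 to 0.075 and Spred2 from -0.013 to 0.12 when 1 library was left out. Dusp16 was at -0.041 after median-ratio rescaling, -0.061 after quantile normalization and -0.0018 without both sham libraries, and Spred2 at -0.017 after quantile normalization. For injury in preconditioned mice, Spred2 was at -0.056 and -0.0045 under these rescalings and from -0.021 to 0.061 without 1 library, and the difference of injury effects on Dusp6 ran from -0.094 to 0.22. Over all tested genes, calls between the RIRI groups were 5203, or 3373 with only the groups compared, those between the shams 52, or 12 to 303, and those for the difference of injury effects 2953, or 1526 without both sham libraries. Median-ratio rescaling moved the median change of all genes with injury in normoxic mice by -0.10. Under it the share of calls that were higher went from 58.1% to 49.9% for injury in normoxic mice, from 58.7% to 48.2% between the RIRI groups, from 63% to 49.4% for injury in preconditioned mice and from 44.2% to 23.9% between the shams. Same-numbered libraries deviated with correlations from -0.248 to 0.165, which cannot show whether a replicate number pairs mice. Dusp10 is limited by its reads, and 3 mice per group limit all results.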

Other observations

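Among the atypical dual-specificity phosphatases, which lack the kinase-binding part of the MKP family, 4 of 10 tested genes rose and 4 fell with injury in normoxic mice, beside 41.6% and 30.1% of all tested genes. Dusp15 fell by 1.72 ± 0.13 on the log2 scale, from a mean FPKM of 2.58 to 0.0799, and Dusp22 and Dusp3 rose by 0.75 and 0.76. Between the RIRI groups 3 were higher in preconditioned mice, Dusp15, Dusp19 and Dusp23, and 0 were lower by limma, beside 24.7% and 17.4% of all tested genes.

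The 10 genes also differed between mice of one group. Preconditioned RIRI replicate 2 was lowest of its group in 7 of the 10 genes and highest in 0, normoxic RIRI replicate 1 was lowest in 7 and highest in 1, and normoxic sham replicate 1 was lowest in 9. How often these libraries were lowest over all tested genes was not counted, so a shift of a whole library cannot be told apart. The summed FPKM of Havcr1, Lcn2 and Krt20 was 728 in preconditioned RIRI replicate 2, against 1608 and 1359 in replicates 1 and 3, and 2335 in normoxic RIRI replicate 1, against 4109 and 3487.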
